A study of Homo sapiens with 10 samples.

Results

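The HOX genes of clusters A to D were followed across 5 human prostate cancer cell lines that were grown without treatment. Rows of the deposited expression table were taken where the symbol was HOX, a cluster letter from A to D and a paralog number, and 37 of the 60642 symbols of the table are described here, with 10 in cluster A and 9 in each of clusters B, C and D. Sums and counts over a cluster cover these genes and not the whole cluster. Expression was measured by bulk RNA-seq of polyA-enriched RNA in 2 biological repeats of each line, and the lines were DU145, PC3, LNCaP, DUCAP and VCAP. LNCaP was derived from a lymph node metastasis, DU145 from a brain metastasis and PC3 from a bone metastasis. VCAP and DUCAP come from a vertebral and a dural metastasis of the same patient. Each line is a single established culture, and all were in exponential growth in phenol-red-free RPMI medium with fetal bovine serum. Numbers at the end of the sample labels of DU145 and PC3 do not all match the repeat numbers used here, and the labels do not say what they number. The labels state no more than that the repeats are biological, so p-values measure only the spread between these samples and speak of these 5 lines.

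HOX genes encode homeodomain transcription factors that assign position along the body axis in the embryo. Within each cluster the paralogs lie in a fixed order, and genes with low paralog numbers act toward the head whereas those with high numbers act in the trunk, limbs, genital tract and hindgut. They bind DNA together with TALE cofactors of the PBX, MEIS and PKNOX families, they are held silent or active by Polycomb and Trithorax proteins, and noncoding RNAs are transcribed between and across them. HOXA10 and HOXA13 are known for their part in the developing urogenital tract, HOXC6 is measured in urine tests for prostate cancer, and HOXD13 patterns the digits and genitalia.

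All 37 symbols matched RefSeq annotation on GRCh38.p14. The 10 genes of cluster A span 99.7 kb of chromosome 7 (27100354 to 27200091), the 9 of cluster B span 97.8 kb of chromosome 17 (48528526 to 48626358), the 9 of cluster C span 117.2 kb of chromosome 12 (53938831 to 54056030) and the 9 of cluster D span 103.4 kb of chromosome 2 (176087487 to 176190907). The annotated genes overlap in 8 pairs that involve 11 of the 37 genes. HOXC4, HOXC5 and HOXC6 share a start at position 54016888, HOXB3 spans HOXB4, HOXA3 spans HOXA4, HOXA5 and HOXA6, and HOXD3 overlaps HOXD4. These are overlaps of whole gene spans, and exons were not compared. Where such genes share exons their reads have to be divided between them, so their values are less certain. Another 15 overlaps join 14 of the genes to a noncoding RNA, such as HOXA10 to HOXA10-AS, and the libraries were prepared with a kit that keeps the strand of the RNA. Whether the quantification used the strand is not given in the sources used here. If it did not, reads of partners on opposite strands cannot be told apart.

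RefSeq promoter windows (GRCh38.p14, 250 bases before and 50 after a start) were at hand for 20 of the 37 genes. In 18 of these the window sat at the outer end of the gene, with HOXC4 and HOXC5 sharing a window. The windows of HOXA9, HOXA10 and HOXA13 are shown because these genes had the widest ranges of TPM between the lines within cluster A, and that of HOXD13 because this gene stayed near 0 in most samples. Each is written 5′ to 3′ on the strand of the gene. Capitals mark TATAAA or CCAAT or GGGCGG on either strand, and the HOXD13 window lies at an inner start of that gene.
HOXA9 (chr7:27165488-27165787, minus strand): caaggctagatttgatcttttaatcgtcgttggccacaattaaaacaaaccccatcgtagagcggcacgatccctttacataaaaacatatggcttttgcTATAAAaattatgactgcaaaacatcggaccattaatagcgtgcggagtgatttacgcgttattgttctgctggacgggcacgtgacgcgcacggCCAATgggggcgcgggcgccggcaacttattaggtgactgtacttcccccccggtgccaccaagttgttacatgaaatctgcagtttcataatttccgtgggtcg
HOXA10 (chr7:27179812-27180111, minus strand): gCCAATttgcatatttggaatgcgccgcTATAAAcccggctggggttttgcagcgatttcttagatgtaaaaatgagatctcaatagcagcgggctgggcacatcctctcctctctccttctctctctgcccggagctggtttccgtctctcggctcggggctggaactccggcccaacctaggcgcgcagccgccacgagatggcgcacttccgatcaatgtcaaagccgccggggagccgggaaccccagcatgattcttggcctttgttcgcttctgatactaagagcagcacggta
HOXA13 (chr7:27200042-27200341, minus strand): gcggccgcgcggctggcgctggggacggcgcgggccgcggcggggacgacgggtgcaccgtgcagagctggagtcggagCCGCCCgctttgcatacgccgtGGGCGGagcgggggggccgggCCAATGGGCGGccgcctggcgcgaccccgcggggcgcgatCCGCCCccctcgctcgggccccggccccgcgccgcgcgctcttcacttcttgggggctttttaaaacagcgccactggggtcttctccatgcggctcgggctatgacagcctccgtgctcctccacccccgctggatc
HOXD13 (chr2:176092471-176092770, plus strand): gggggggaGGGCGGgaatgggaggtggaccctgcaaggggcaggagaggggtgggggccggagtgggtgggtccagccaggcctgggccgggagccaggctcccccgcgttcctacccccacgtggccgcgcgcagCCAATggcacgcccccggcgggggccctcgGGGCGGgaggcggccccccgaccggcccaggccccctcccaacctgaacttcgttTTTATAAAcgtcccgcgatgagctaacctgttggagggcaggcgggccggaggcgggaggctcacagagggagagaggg
HOXA9 and HOXA10 each held 1 TATAAA and 1 CCAAT and no GGGCGG. HOXA13 held no TATAAA, 1 CCAAT and 4 GGGCGG and it had 44 CpG against 22 in HOXA9 and 21 in HOXA10. HOXD13 held 1 CCAAT, 2 GGGCGG and a TATAAA that is counted 2 times because it overlaps its own reverse complement. Among the 18 windows at gene ends, CCAAT occurred in 83.3%, GGGCGG in 44.4% and TATAAA in 16.7%. Among all 35116 promoter windows of this length the shares were 34.6%, 45.0% and 11.5%. A match of letters is a description of the window and not a mapped binding site.

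Levels were deposited as TPM (a share of each sample's transcripts that is adjusted for transcript length), so levels of different genes can be set side by side within a sample. TPM do not keep the depth, so the read support of each value is unknown. Mitochondrial genes took 12.7 to 36% of the TPM, most in DUCAP and VCAP (32.1 to 36%), and their part in the results was tested by rescaling without them. The epithelial genes EPCAM (23.4 to 264 TPM), KRT8 (98.95 to 858) and KRT18 (120 to 1077) were present in every sample. The prostate luminal genes KLK2, KLK3 and TMPRSS2 had lower TPM in all 4 samples of DU145 and PC3 than in the other 6. Among 9 markers of leukocytes, endothelium and fibroblasts, PTPRC, CD3E, CDH5, PECAM1 and DCN stayed below 1 TPM in every sample. CD68 reached 101.1 and 74.0 TPM in DU145 and COL1A1 31.5 and 38.0 TPM in PC3, VWF reached 5.45 and 4.22 TPM in LNCaP, and PDGFRA did not exceed 1.1 TPM. The part of these markers in the results was not tested. In bulk RNA a smaller fraction of expressing cells and less RNA per cell cannot be told apart.

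DU145 used the widest set of these genes. Taking a gene as present where both repeats reached 1 TPM, 24 of the 37 were present in DU145, against 13 in PC3, 11 in VCAP, 10 in DUCAP and 9 in LNCaP. Over the 17520 genes tested below, the share present by the same rule was 79.7% in DU145, 79% in PC3, 73.7% in VCAP, 69.6% in DUCAP and 78.7% in LNCaP. The 17520 had passed a filter that kept 28 of the 37 HOX genes, so these shares compare with counts out of 28 and not 37. HOXA2, HOXB2, HOXB8, HOXC5, HOXC11, HOXD1 and HOXD9 passed that filter through DU145 alone. The count of DU145 out of 28 is therefore partly fixed by the filter. Over all 60642 symbols, 13960 were present in DU145, 13845 in PC3, 12920 in VCAP, 12202 in DUCAP and 13794 in LNCaP. By cluster, DU145 had 7 genes of A, 7 of B, 7 of C and 3 of D, whereas PC3 had 8, 3, 2 and 0. DUCAP and VCAP both had 7 genes of cluster A, none of the 9 of cluster B and 3 of cluster C, and they differed in cluster D, where VCAP had HOXD8. LNCaP had 2 genes of A, 2 of B, 5 of C and none of D. At 5 TPM in place of 1 TPM the numbers were 11 in DU145, 6 in DUCAP, 5 in PC3 and 4 in both LNCaP and VCAP. At 0.5 TPM the number in PC3 was 20, which does not compare with the numbers of the other lines at 1 TPM.

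**Figure D1:**
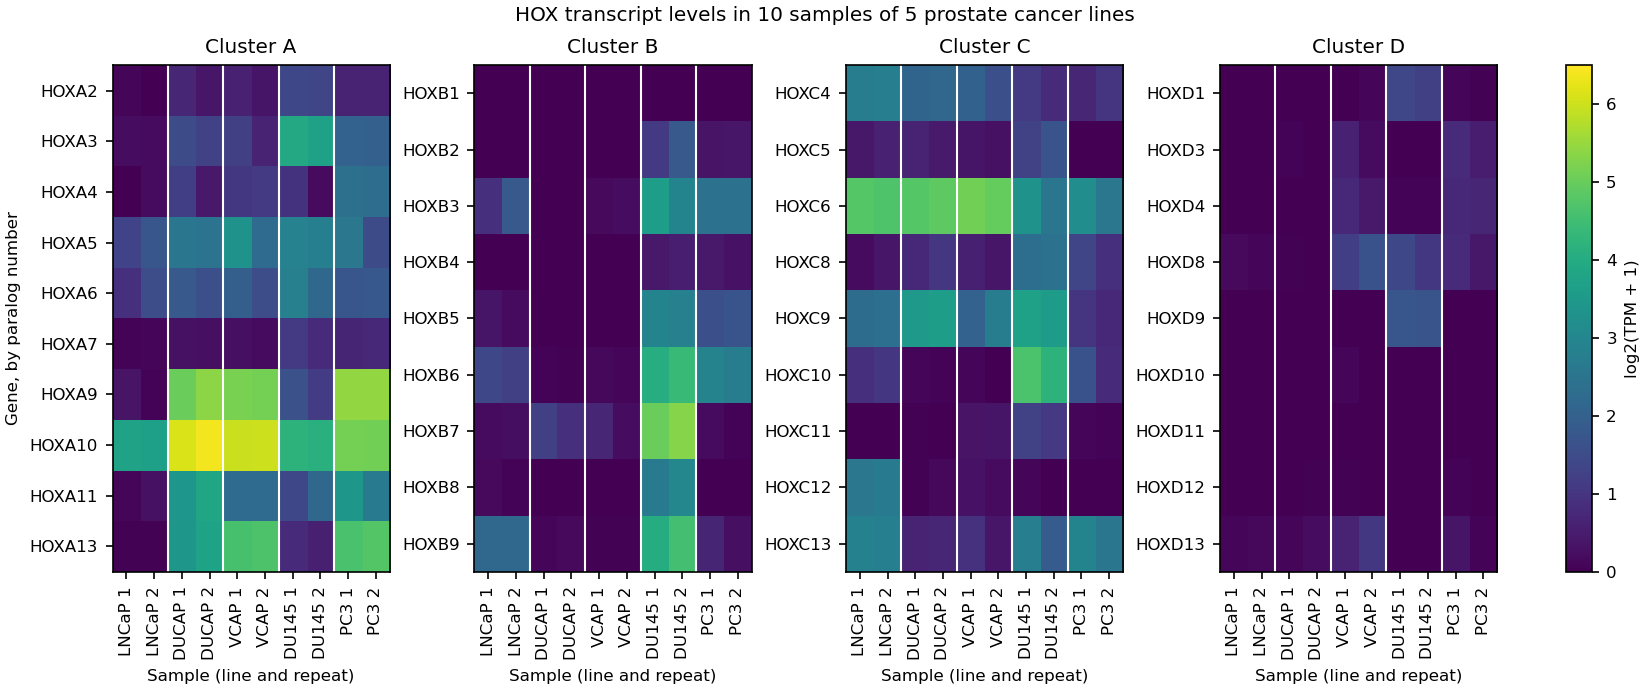
Levels of the 37 HOX genes as log2(TPM + 1) in colour, with 1 column per sample and 1 row per gene, grouped by cluster and ordered by paralog number. The high block at HOXA9 and HOXA10 covers DUCAP, VCAP and PC3, HOXC6 is bright in LNCaP, DUCAP and VCAP, and the block from HOXB5 to HOXB9 is bright in DU145.

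HOXA5, HOXA10 and HOXC6 were present in all 5 lines, and HOXA6, HOXA9, HOXA11 and HOXC9 in 4 lines. Another 5 genes (HOXA3, HOXA13, HOXB6, HOXC4 and HOXC13) were present in 3 lines and 5 (HOXA4, HOXB3, HOXB5, HOXB9 and HOXD8) in 2 lines. Of the 11 genes present in 1 line only, 10 were present in DU145, and the exception was HOXC12, which was present in LNCaP. In 9 genes no line had both repeats at 1 TPM. These were HOXA7, HOXB1, HOXB4, HOXD3, HOXD4, HOXD10, HOXD11, HOXD12 and HOXD13. HOXB1, a hindbrain gene, and HOXD11, a forearm gene, were listed at 0 in all 10 samples, and a further 5 (HOXB4, HOXD3, HOXD4, HOXD10 and HOXD12) never reached 1 TPM. HOXA7 and HOXD13 each passed 1 TPM in a single sample.

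Line means were highest in DU145 for 19 of the 37 genes, in PC3 for 6, in VCAP for 5, in LNCaP for 3 and in DUCAP for 2, and the 2 genes listed at 0 had no highest line. In 17 genes both DU145 repeats lay above the other 8 samples, and 16 of these were among the 28 genes that passed the filter for testing. Over all tested genes 16.4% had both DU145 repeats above the rest. HOXA2, HOXB2, HOXB8, HOXC5, HOXC11, HOXD1 and HOXD9, all among the 16, passed the filter through DU145 alone. The 16 of 28 therefore partly reflect the filter and are a description. The 17 genes were HOXA2, HOXA3, HOXA6 and HOXA7, all 7 of the cluster B genes that were tested (HOXB2, HOXB3 and HOXB5 to HOXB9), HOXC5, HOXC8, HOXC10 and HOXC11, and HOXD1 and HOXD9. The same was seen for PC3 in HOXA4 and HOXA9, for LNCaP in HOXC4 and HOXC12, for VCAP in HOXC6 and HOXD13, and for DUCAP in HOXA10. The shares over all tested genes were not computed for these lines, so their numbers cannot be weighed against that of DU145.

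Of the summed TPM of the 37 genes, the largest part came from cluster C in LNCaP, from cluster B in DU145, and from cluster A in DUCAP, VCAP and PC3. Cluster A summed to 144.4 ± 18.4 TPM in DUCAP, 137 ± 4.08 in VCAP, 123 ± 4.65 in PC3, 49.2 ± 4.61 in DU145 and 16.1 ± 0.870 in LNCaP (mean ± SD, n = 2 repeats here and for the other clusters). The ranges of DUCAP and VCAP overlapped, while LNCaP lay below every other sample. The 9 cluster B genes summed to 95.6 ± 11.7 TPM in DU145, 13.7 ± 0.665 in PC3, 7.23 ± 0.877 in LNCaP, 1.22 ± 0.339 in DUCAP and 0.635 ± 0.318 in VCAP. Cluster C was the most even, with 52.0 ± 10.9 TPM in DU145, 48.8 ± 0.446 in LNCaP, 43.9 ± 2.34 in DUCAP and 40.8 ± 2.21 in VCAP, and PC3 was lower at 16.6 ± 4.99. Cluster D stayed low, with 5.16 ± 0.672 TPM in DU145, 3.42 ± 0.438 in VCAP, 1.98 ± 0.750 in PC3, 0.185 ± 0.00707 in LNCaP and 0.165 ± 0.0354 in DUCAP.

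As shares of the summed TPM of the 37 genes, cluster A made up 75 and 77.1% in the DUCAP repeats, 75.1 and 75.6% in VCAP, 77.5 and 81.2% in PC3, 25.6 and 23.1% in DU145 and 21.7 and 22.9% in LNCaP. Cluster B made up 42.6 and 52.2% in DU145 and at most 10.7% in any other sample. Cluster C made up 68.7 and 66.2% in LNCaP and at most 29.1% elsewhere. These shares do not depend on how a sample's total was scaled. The order of the sums can, and after median-ratio scaling cluster C summed to 62.1 TPM in DUCAP against 40.4 TPM in LNCaP.

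**Figure D2:**
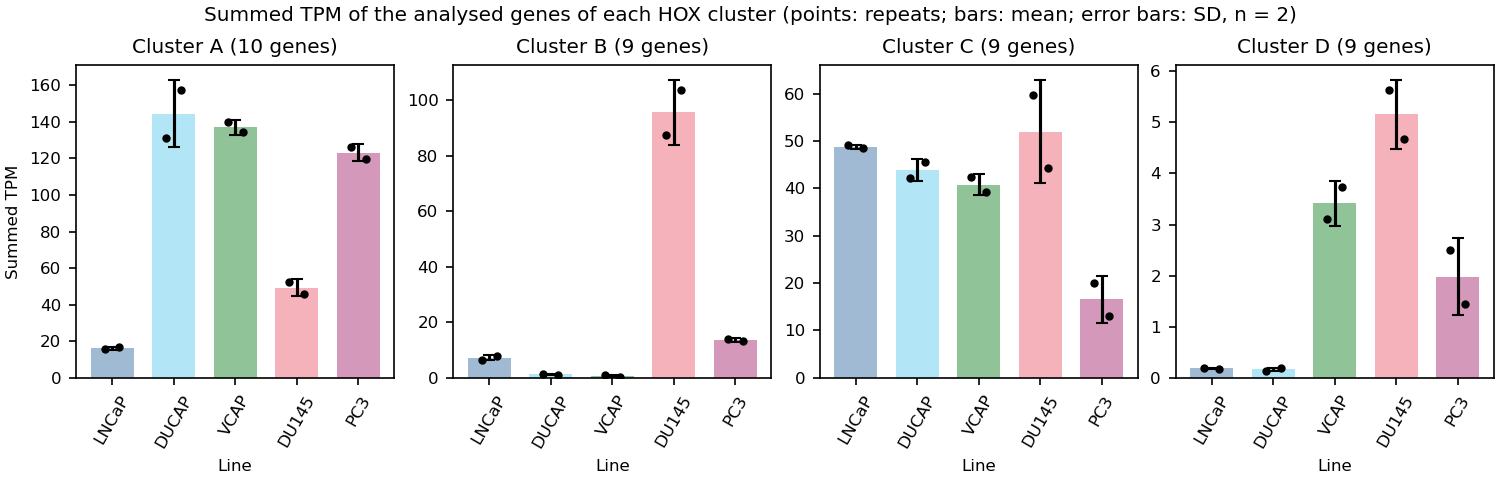
Summed TPM of the analysed genes of clusters A, B, C and D in each line, with points for the 2 repeats, bars for their mean and error bars for the SD, each panel on its own axis from 0. Cluster A is lowest in LNCaP (16.1 TPM) and highest in DUCAP (144.4 TPM), cluster B stands out in DU145 (95.6 TPM), and cluster C is lowest in PC3 (16.6 TPM).

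Differences were tested on log2(TPM + 1) with limma over the 17520 genes that reached 1 TPM in at least 2 samples, with Benjamini-Hochberg adjustment at 0.05. Changes of low genes are understated on this scale. The filter kept 28 of the 37 genes (9 in cluster A, 7 in B, 9 in C and 3 in D), and a gene high in a single line passes it through that line, so counts over the 28 are descriptions. Between the 5 lines, 27 of the 28 differed (limma's moderated F test), in a background where 90.8% of all tested genes did. The exception was HOXA5, a gene of lung and neck development, with an adjusted p of 0.06 in limma. HOXA5 ranged from 1.48 to 2.35 TPM in LNCaP and from 1.81 to 9.17 TPM over the other lines, and its VCAP (9.17 and 3.82) and PC3 (4.92 and 1.81) repeats were the only ones of the 28 genes to differ by over 1 on the log2 scale. Leaving out repeat 2 of VCAP, or either repeat of PC3, placed HOXA5 among the genes that differed (28 of 28), and so did quantile normalization, median-ratio scaling, rescaling without mitochondrial genes, a replicate block (a term for the repeat number) and a filter of 5 TPM.

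In DUCAP, VCAP and PC3 the highest levels of cluster A lay toward the end of the cluster with high paralog numbers. In DU145 and LNCaP this held for HOXA10 only. There the means of HOXA5 and HOXA6 exceeded those of HOXA9, HOXA11 and HOXA13. HOXA10, a regulator of uterine and male genital tract development, had the highest level of any of the 37 genes. It stood at 69.3 and 82.7 TPM in DUCAP, 61.9 and 63.8 in VCAP, 34.5 and 33.4 in PC3, 17.5 and 16.5 in DU145 and 12.5 and 11.8 in LNCaP. The lines did not overlap with each other, in the order DUCAP, VCAP, PC3, DU145, LNCaP, although DUCAP and VCAP did not pass the test against each other (0.27 ± 0.13 SE on the log2 scale, adjusted p = 0.21, limma) unless the samples were quantile normalized or scaled by median ratio. HOXA10 was lower in LNCaP than in DUCAP and VCAP by −2.41 ± 0.113 (SE, adjusted p = 9.2e-07, limma), and lower in DU145 than in PC3 by −0.96 ± 0.13 (adjusted p = 0.00047, limma).

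HOXA9, known for its role in blood progenitors and leukaemia, was nearly all or none. Its level was 31.2 and 40.1 TPM in DUCAP, 35.6 and 34.3 in VCAP and 42.3 and 42.6 in PC3, but 2.08 and 1.22 in DU145 and 0.26 and 0.05 in LNCaP. The 6 samples of DUCAP, VCAP and PC3 all lay above the 4 of DU145 and LNCaP. The difference of log2(TPM + 1) was −4.98 ± 0.177 (SE) for LNCaP minus DUCAP and VCAP (adjusted p = 2.5e-07, limma) and −4.06 ± 0.204 for DU145 minus PC3 (adjusted p = 1.8e-06, limma). DUCAP and VCAP differed by 0.02 ± 0.204 (adjusted p = 1, limma).

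HOXA13, the hand, foot and genital gene at the end of the cluster, had the same high and low lines. It was measured at 9.83 and 12.6 TPM in DUCAP, 23.5 and 24.5 in VCAP, 24.0 and 26.1 in PC3, 0.74 and 0.48 in DU145 and 0.03 and 0.03 in LNCaP. PC3 and VCAP overlapped in range and DUCAP lay below both. LNCaP minus DUCAP and VCAP was −4.08 ± 0.147 (SE, adjusted p = 2.6e-07, limma), DU145 minus PC3 −4.02 ± 0.17 (adjusted p = 7.2e-07, limma) and DUCAP minus VCAP −1.04 ± 0.17 (adjusted p = 0.0046, limma). HOXA11, which acts in forearm and uterine development, was highest in DUCAP at 9.70 and 13.1 TPM and in PC3 at 9.79 and 5.30, and was at 0.09 and 0.23 in LNCaP. It was lower in LNCaP than in DUCAP and VCAP by −2.74 ± 0.282 (adjusted p = 5.3e-05, limma).

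The genes of cluster A with low paralog numbers had another order of lines. HOXA3, a gene of the pharyngeal arches, thymus and parathyroid, was at 14.3 and 12.1 TPM in DU145, 3.10 and 2.96 in PC3, 1.78 and 1.39 in DUCAP, 1.33 and 0.53 in VCAP and 0.16 and 0.14 in LNCaP. All 4 samples of DU145 and PC3 lay above the other 6, and DU145 above PC3. HOXA3 overlaps HOXA-AS2 and HOXA-AS3, so its reads may include theirs if strand was not used. DU145 minus PC3 was 1.81 ± 0.211 (SE) for HOXA3 (adjusted p = 2e-04, limma).

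HOXA4 went the other way, with 4.29 and 3.98 TPM in PC3 and 0.94 and 0.14 in DU145 (−1.79 ± 0.294 for DU145 minus PC3, adjusted p = 0.0013, limma). HOXA2, which specifies the second pharyngeal arch, stayed between 0 and 1.64 TPM, with its 2 highest values in DU145. HOXA6 ranged from 0.87 to 6.13 TPM and HOXA7 from 0.05 to 1.14 TPM.

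**Figure D3:**
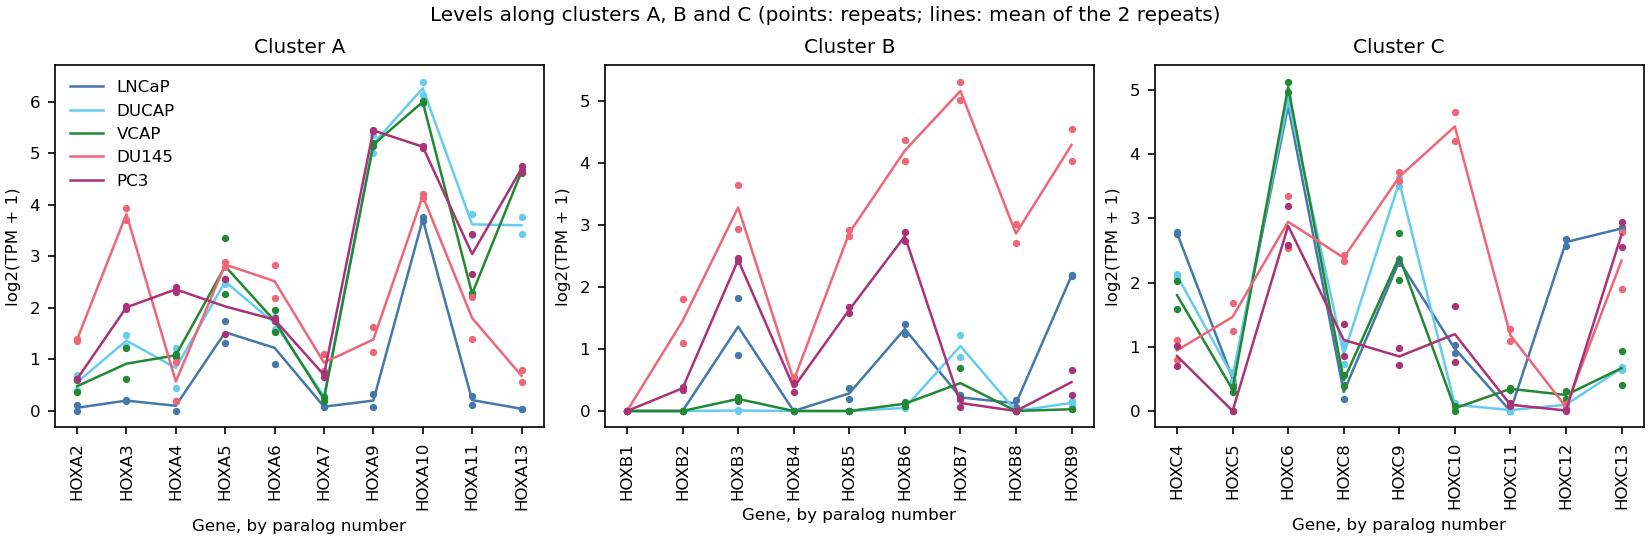
Levels as log2(TPM + 1) along clusters A, B and C by paralog number, with points for repeats and lines joining the means of the 2 repeats of each cell line. In cluster A the DU145 line is on top at HOXA2 and HOXA3 while DUCAP, VCAP and PC3 are on top from HOXA9 to HOXA13. In cluster B the DU145 line lies above all others at each gene but HOXB1, which is at 0. At HOXB4 the DU145 and PC3 points overlap.

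The 9 genes of cluster B were all but silent in DUCAP and VCAP, where only HOXB7 reached 1 TPM, in 1 DUCAP repeat. HOXB7, the highest of the 9, was at 31.4 and 38.8 TPM in DU145, 1.34 and 0.83 TPM in DUCAP, 0.61 and 0.16 in VCAP, 0.14 and 0.19 in LNCaP and 0.15 and 0.04 in PC3. DU145 thus stood apart from the 4 other lines, which lay within 0.04 to 1.34 TPM. DU145 minus PC3 was 5.04 ± 0.207 (SE, adjusted p = 6.5e-07, limma), the largest difference of the 28 genes in that comparison.

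HOXB9, a gene of thoracic and mammary development, was at 15.4 and 22.5 TPM in DU145 and at 3.52 and 3.57 in LNCaP, and at 0.59 TPM or less in the other 6 samples. DU145 minus PC3 was 3.83 ± 0.204 (SE, adjusted p = 2.3e-06, limma), and LNCaP minus DUCAP and VCAP was 2.10 ± 0.176 (adjusted p = 1.7e-05, limma). HOXB8, which acts in blood and microglial cells, was at 5.55 and 7.10 TPM in DU145, at 0.13 and 0.05 in LNCaP, and was listed at 0 in DUCAP, VCAP and PC3.

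HOXB6, HOXB5 and HOXB3 formed another pattern, in which PC3 followed DU145. HOXB6 was at 15.4 and 19.7 TPM in DU145, 6.45 and 5.71 in PC3, 1.66 and 1.36 in LNCaP, and 0.11 TPM or less in DUCAP and VCAP. No sample of one line overlapped with another in the order DU145, PC3, LNCaP. HOXB3, known from hindbrain and thyroid development, was at 11.5 and 6.63 TPM in DU145, 4.33 and 4.51 in PC3, 0.87 and 2.53 in LNCaP and 0.17 TPM or less in DUCAP and VCAP. HOXB5, a gene of the enteric nervous system, was at 6.59 and 6.09 TPM in DU145, 2.00 and 2.21 in PC3 and 0.29 and 0.15 in LNCaP, and was listed at 0 in DUCAP and VCAP. HOXB2, which acts in the hindbrain, was at 1.15 and 2.49 TPM in DU145 and 0.27 and 0.31 in PC3 and was listed at 0 in the other 6 samples. HOXB4, a gene of blood stem cells, was measured in DU145 (0.35 and 0.47 TPM) and PC3 (0.37 and 0.24 TPM) alone.

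In cluster C, HOXC6, a gene raised in many prostate tumours, had the highest mean of the cluster in LNCaP, DUCAP, VCAP and PC3, but not in DU145. It was at 33.9 and 30.1 TPM in VCAP, 26.7 and 28.6 in DUCAP, 26.8 and 25.0 in LNCaP, 9.19 and 4.83 TPM in DU145 and 8.09 and 4.99 in PC3. The first 3 lines lay close to each other, and all 6 of their samples lay above the 4 of DU145 and PC3, which overlapped. The difference for DU145 and PC3 against the other 3 lines was −1.96 ± 0.182 (SE, adjusted p = 1.8e-05, limma). DU145 minus PC3 was 0.06 ± 0.281 (adjusted p = 0.89, limma). LNCaP did not pass the test against DUCAP and VCAP (−0.19 ± 0.244, adjusted p = 0.52, limma), but it did after quantile normalization or median-ratio scaling. HOXC4, which shares its start with HOXC6, had the same order of groups, with LNCaP at 5.74 and 5.91 TPM, DUCAP at 3.24 and 3.39, VCAP at 3.05 and 2.01, PC3 at 0.63 and 1.01 and DU145 at 1.14 and 0.73.

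The genes at the other end of cluster C split by line. HOXC10, which acts in the lumbar spinal cord and hindlimb, was at 24.3 and 17.4 TPM in DU145, 2.09 and 0.70 in PC3, 0.88 and 1.04 in LNCaP, and 0.09 TPM or less in DUCAP and VCAP. HOXC12 was at 4.96 and 5.43 TPM in LNCaP and at 0.24 TPM or less in the other 8 samples. HOXC13, the hair and nail gene, was at 6.29 and 6.05 TPM in LNCaP, 6.68 and 4.86 in PC3, 5.89 and 2.73 in DU145, and 0.91 TPM or less in DUCAP and VCAP. The 6 samples of LNCaP, PC3 and DU145 lay above the 4 of DUCAP and VCAP for HOXC13. LNCaP minus DUCAP and VCAP was 2.46 ± 0.0971 (SE) for HOXC12 (adjusted p = 4.2e-07, limma) and 2.18 ± 0.262 for HOXC13 (adjusted p = 0.00013, limma). When either LNCaP repeat was left out, HOXC12 no longer reached 1 TPM in 2 samples and was not tested.

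HOXC9, a gene of thoracic motor neurons, was at 12.2 and 10.9 TPM in DU145, 10.4 and 11.3 TPM in DUCAP, 3.11 and 5.80 in VCAP, 3.93 and 4.16 in LNCaP and 0.98 and 0.64 in PC3. Thus DU145 and DUCAP overlapped, as did VCAP and LNCaP, and PC3 lay below all. HOXC8 was at 4.07 and 4.39 TPM in DU145 and at most 1.55 TPM elsewhere. HOXC5 was at 1.38 and 2.20 TPM in DU145, at 0.23 to 0.53 in LNCaP, DUCAP and VCAP, and was listed at 0 in PC3. HOXC11 was at 1.41 and 1.13 TPM in DU145 and at most 0.28 TPM elsewhere.

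The 9 genes of cluster D were the least used. HOXD9 had the highest mean of the cluster in any line, at 2.32 and 2.22 TPM in DU145, and was listed at 0 in the other 8 samples. HOXD1 was at 1.63 and 1.34 TPM in DU145 and at 0.07 TPM or less elsewhere. HOXD8 was at 1.3 and 2.1 TPM in VCAP, 1.64 and 1.08 in DU145, 0.73 and 0.34 in PC3, 0.13 and 0.08 in LNCaP and 0.03 and 0 in DUCAP. HOXD8 had the largest difference of the 28 tested genes between the lines from the same patient, with DUCAP minus VCAP at −1.40 ± 0.193 (SE, adjusted p = 0.0021, limma).

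HOXD13 was at 0.55 and 1.07 TPM in VCAP, 0.28 and 0.04 in PC3, 0.07 and 0.17 in DUCAP and 0.06 and 0.10 in LNCaP, and was listed at 0 in DU145. Both VCAP values lay above the other 8, and the gene did not pass the filter for testing. HOXD3 and HOXD4, which overlap each other, were seen in VCAP (HOXD3 at 0.50 and 0.15 TPM, HOXD4 at 0.67 and 0.35) and PC3 (HOXD3 at 0.70 and 0.41, HOXD4 at 0.69 and 0.63) and stood at 0.04 TPM or less in LNCaP, DUCAP and DU145. HOXD10 and HOXD12 did not exceed 0.07 TPM.

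DU145 and PC3 were set against LNCaP, DUCAP and VCAP. In this comparison 24 of the 28 tested genes differed, 19 higher and 5 lower in DU145 and PC3, where 74.4% of all tested genes differed, 51.9% higher and 22.5% lower. The median difference was 0.66 over the 28 genes and 0.40 over all tested genes. By cluster, A had 4 higher and 1 lower of 9, B 7 higher of 7, C 5 higher and 4 lower of 9, and D 3 higher of 3. Of the higher genes, HOXA2, HOXB2, HOXB8, HOXC5, HOXC11, HOXD1 and HOXD9 reached 1 TPM only in DU145. They passed the filter through that line, so the counts by cluster partly reflect the filter. HOXA4, HOXA6 and HOXD8, also counted as higher, lost their calls when samples were scaled by median ratio or quantile normalized. In 7 genes the 2 groups of samples did not overlap and the test was passed, against 26.7% of all tested genes. HOXA3 (2.09 ± 0.136 SE, adjusted p = 2.2e-06, limma), HOXB3 (2.34 ± 0.202, adjusted p = 1.2e-05), HOXB5 (2.16 ± 0.0778, adjusted p = 8.6e-08) and HOXB6 (3.02 ± 0.105, adjusted p = 7e-08) were higher in DU145 and PC3, as was HOXB2, which was listed at 0 in the other lines. HOXC4 (−1.33 ± 0.127, adjusted p = 2.3e-05, limma) and HOXC6 were lower.

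Several genes differed in this comparison although DU145 alone carried the high values. HOXB7 had a difference of 2.07 ± 0.133 (SE, adjusted p = 2.1e-06, limma), with PC3 at 0.15 and 0.04 TPM, within or below the range of the other 3 lines. HOXC10 (2.44 ± 0.176, adjusted p = 4e-06, limma) overlapped between the groups through PC3 repeat 2 (0.70 TPM, against up to 1.04 TPM in LNCaP). HOXA9 (−0.10 ± 0.132, adjusted p = 0.49, limma) and HOXA13 (−0.07 ± 0.109, adjusted p = 0.58, limma) did not pass, and each group held lines at both ends of their range. Quantile normalization moved the median of all tested genes from 0.401 to −0.085 and gave 15 higher and 7 lower, and median-ratio scaling moved it to 0.004 and gave 13 higher and 7 lower. Under both, HOXA9 and HOXA13 passed as lower in DU145 and PC3. HOXC5, higher at an adjusted p of 0.036 in limma, turned to −0.12 with a pseudocount of 0.1 and to −0.03 after quantile normalization, and lost its call without LNCaP repeat 1, DUCAP repeat 2 or any single repeat of VCAP or PC3 (adjusted p = 0.057 to 0.095, limma). Its call was also lost with no filter on low values (adjusted p = 0.052), after median-ratio scaling (0.27) and after rescaling without mitochondrial genes (0.1). Leaving out a DU145 repeat left 21 genes tested and 16 (without repeat 1) or 17 (without repeat 2) that differed.

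**Figure D4:**
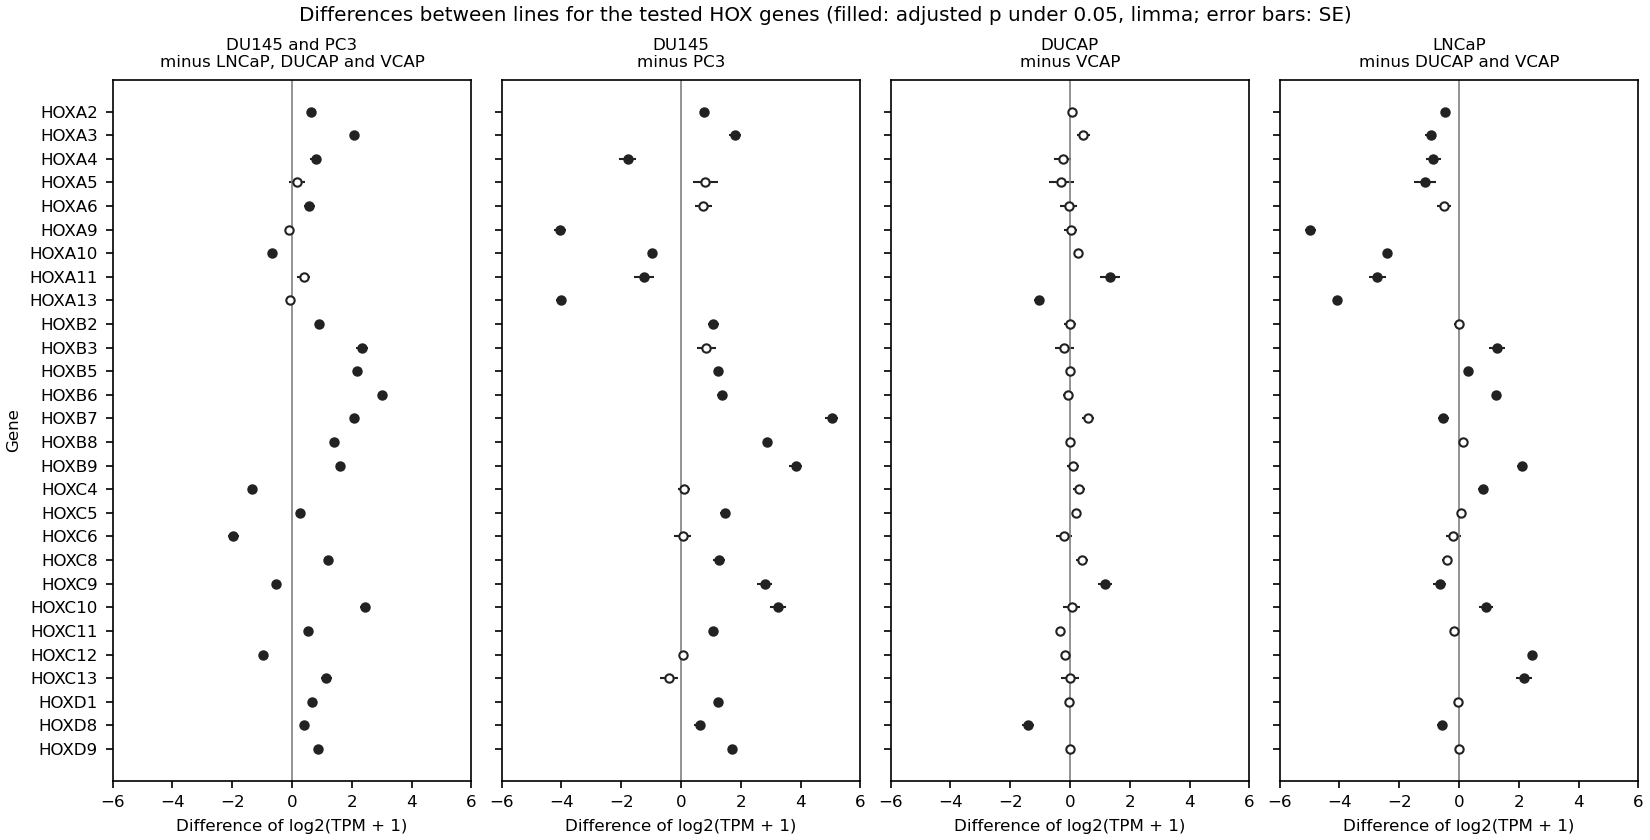
Differences of log2(TPM + 1) for the 28 tested HOX genes in the 4 comparisons of lines, with error bars for the SE and filled points where the adjusted p was under 0.05 in limma. DU145 minus PC3 has its extremes at HOXB7 (5.04) and at HOXA9 (−4.06) and HOXA13 (−4.02), DUCAP minus VCAP stays within −1.40 to 1.35, and LNCaP minus DUCAP and VCAP is lowest at HOXA9 (−4.98). Where a group is listed at 0, such as HOXD9, HOXB2 and HOXB8, the plotted point depends on the pseudocount.

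Between DU145 and PC3, 21 of the 28 genes differed, 16 higher and 5 lower in DU145, where 49.3% of all tested genes differed, 23.8% higher and 25.5% lower. The 5 that were lower in DU145 were all in cluster A (HOXA4, HOXA9, HOXA10, HOXA11 and HOXA13), and the 2 of that cluster that were higher were HOXA2 and HOXA3. In clusters B, C and D the 14 genes that differed were all higher in DU145. The median difference was 0.97 over the 28 genes and 0 over all tested genes. Beside the genes above, HOXC10 (3.23 ± 0.273 SE, adjusted p = 3.2e-05, limma) and HOXC9 (2.80 ± 0.239, adjusted p = 3.5e-05, limma) showed large differences. Without DU145 repeat 1 the count was 13 of 21 tested, of which 8 were higher and 5 lower, and without DU145 repeat 2 it was 16 of 21, since 7 genes that reach 1 TPM only in DU145 then failed the filter. HOXA11 lost its call without DU145 repeat 1 (adjusted p = 0.058, limma) or PC3 repeat 1 (adjusted p = 0.096), and HOXD8 without DU145 repeat 1 (adjusted p = 0.12) or PC3 repeat 2 (adjusted p = 0.19). The DU145 repeats were the least alike of the 5 lines. In DU145 9.48% of all tested genes were at least 1 apart in log2(TPM + 1), against at most 2.12% in the other lines. None of the 28 genes was that far apart in DU145 on this scale. In TPM some of them were over 2-fold apart, such as HOXA4 (0.94 and 0.14 TPM) and HOXC13 (5.89 and 2.73 TPM). Of the 28, 20 were higher in repeat 1 in DU145, 18 in PC3, 15 in VCAP, 12 in DUCAP and 10 in LNCaP. The share over all tested genes was not computed.

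DUCAP and VCAP, the lines from the same patient, differed in 4 of the 28 genes, where 18.3% of all tested genes differed, 4.24% higher and 14% lower in DUCAP. HOXA11 (1.35 ± 0.326 SE, adjusted p = 0.024, limma) and HOXC9 (1.16 ± 0.239, adjusted p = 0.012, limma) were higher in DUCAP, and HOXA13 and HOXD8 were lower. HOXA11 was at 9.70 and 13.1 TPM in DUCAP and 3.87 and 3.81 in VCAP, with no overlap. HOXA11 and HOXC9 both lost the call without DUCAP repeat 1, DUCAP repeat 2 or VCAP repeat 1, which left 2 genes, and HOXA11 also without VCAP repeat 2, which left 3. HOXA13 and HOXD8 kept theirs in each of these. Without either DU145 repeat, HOXB7 was added as higher in DUCAP. After quantile normalization 10 genes differed, 7 higher and 3 lower, and the genes gained included HOXA10 and HOXA3.

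LNCaP was set against DUCAP and VCAP, and 19 of the 28 genes differed, 8 higher and 11 lower in LNCaP, where 64.6% of all tested genes differed, 49.2% higher and 15.5% lower. The median was −0.19 over the 28 genes and 0.47 over all tested genes. All 8 cluster A genes that differed were lower in LNCaP, the exception among the 9 being HOXA6 (−0.50 ± 0.245 SE, adjusted p = 0.11, limma). In cluster B 4 were higher and HOXB7 was lower (−0.53 ± 0.179, adjusted p = 0.029, limma), in cluster C 4 were higher and HOXC9 was lower, and in cluster D HOXD8 was lower. HOXB3 (1.26 ± 0.271, adjusted p = 0.0034, limma) and HOXB6 (1.24 ± 0.14, adjusted p = 9e-05, limma) were among those higher in LNCaP. Without LNCaP repeat 1 or LNCaP repeat 2 the count was 12, and the calls of HOXA4, HOXB5, HOXB7, HOXC9 and HOXD8 were lost in both cases, while HOXC12 was not tested. HOXA5 lost its call without LNCaP repeat 1 (adjusted p = 0.15, limma) or DUCAP repeat 1 (adjusted p = 0.056), HOXA2 and HOXC10 without LNCaP repeat 2, HOXB7 also without DUCAP repeat 1 or VCAP repeat 1, HOXC9 also without DUCAP repeat 2, and HOXB5 whenever a sample of any line but DU145 was left out. Quantile normalization moved the median of all tested genes to 0 and gave 7 higher and 15 lower.

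Of 17 listed noncoding RNAs of the clusters, 10 were tested. In DU145 and PC3 against the other 3 lines 7 were higher and 1 lower, with a median of 0.85, where 74.4% of all tested genes differed, 51.9% higher, with a median of 0.40. After quantile normalization 5 were higher and 2 lower. HOTAIRM1, which lies next to HOXA2, was at 36.6 and 19.7 TPM in DU145, 17.4 and 11.1 in PC3, 5.47 and 3.45 in LNCaP, 0.88 and 0.10 in DUCAP and 1.35 and 0.72 in VCAP. Its 4 values in DU145 and PC3 lay above the other 6 (3.03 ± 0.253 SE, adjusted p = 9.7e-06, limma), whereas HOXA2 was at 0.54 and 0.53 TPM in PC3, within its range in DUCAP and VCAP. HOXA-AS2, which overlaps HOXA3 and HOXA4, was at 23.03 and 13.02 TPM in DU145, 3.29 and 2.04 in PC3 and at most 0.44 elsewhere (2.79 ± 0.183, adjusted p = 2.4e-06, limma). HOXB-AS1, which overlaps HOXB2 and HOXB3, was at 2.08 and 3.38 TPM in DU145, 0.58 and 0.78 in PC3, 0 and 0.33 in LNCaP, and was listed at 0 in DUCAP and VCAP.

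At the other end of cluster A, HOTTIP, which starts just beyond HOXA13 and is known for a part in the activity of the nearby genes, was at 28.6 and 16.4 TPM in VCAP, 7.76 and 6.98 in DUCAP, 5.55 and 6.82 in PC3, 0.12 and 0 in DU145, and was listed at 0 in LNCaP. All 6 samples in which HOXA13 exceeded 9 TPM had HOTTIP at 5.55 TPM or more, and the 4 others had 0.12 TPM or less. The mean difference of DU145 and PC3 from the other 3 lines was −1.06 ± 0.159 (SE, adjusted p = 0.00035, limma), but each group held a line near 0, and PC3 lay above LNCaP. HOTTIP was lower in DU145 than in PC3 (−2.76 ± 0.246, adjusted p = 4.5e-05, limma). HOXA10-AS, which overlaps HOXA10, was at 7.92 TPM or more in DUCAP, VCAP and PC3, at 4.20 and 3.23 TPM in DU145 and at 0.05 TPM or less in LNCaP. HOXA11-AS was at 19.2 to 35.0 TPM in DUCAP, VCAP and PC3, 8.08 and 3.90 in DU145 and 2.23 and 1.55 in LNCaP, and so exceeded HOXA11 in every sample. HOTAIR, which overlaps HOXC11, reached 3.39 and 0.95 TPM in DU145 and did not exceed 0.92 TPM in the other lines.

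**Figure D5:**
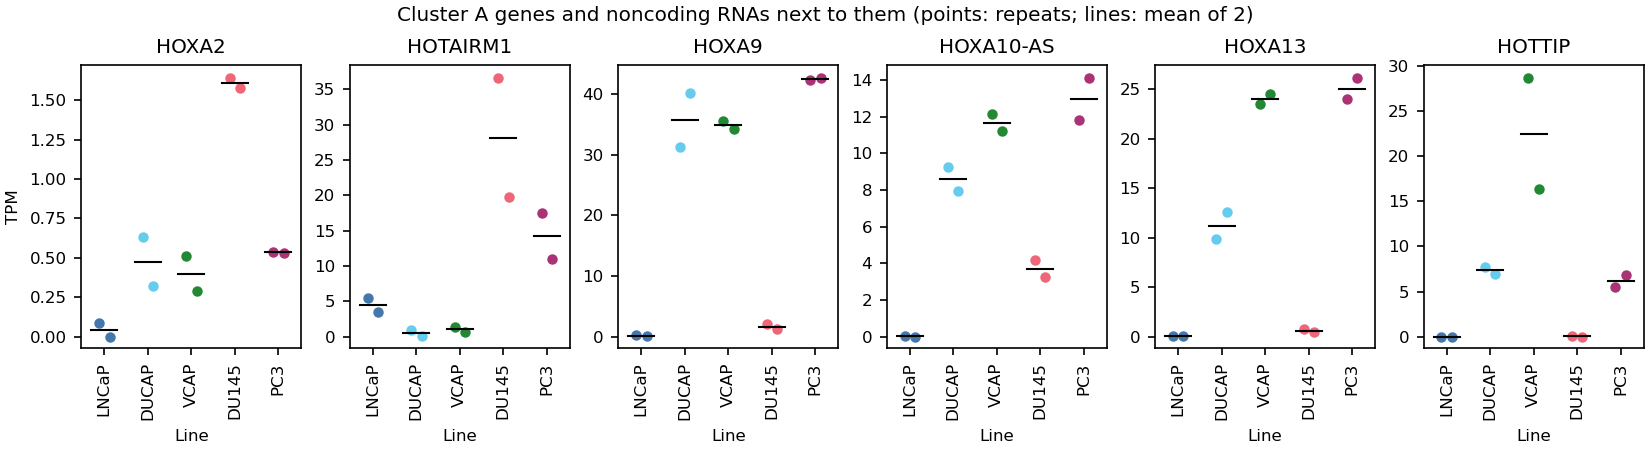
TPM of HOXA2, HOXA9 and HOXA13 beside HOTAIRM1, HOXA10-AS and HOTTIP in the 5 lines, with points for repeats and a short line for the mean of 2, each panel on its own axis. HOTAIRM1 is higher in DU145 and PC3 than in the other lines while HOXA2 has its 2 highest values in DU145, and HOTTIP and HOXA13 are near 0 in both LNCaP and DU145.

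Of 9 TALE cofactors, all tested, 6 differed between DU145 and PC3 and the other 3 lines, 3 higher and 3 lower, with a median of 0.01, where 74.4% of all tested genes differed, 51.9% higher and 22.5% lower, with a median of 0.40. MEIS2, which binds DNA beside HOX proteins, was at 13.4 and 16.8 TPM in DU145 and 14.9 and 17.2 in PC3 and at 0.23 TPM or less in the other 6 samples (3.95 ± 0.111 SE, adjusted p = 2.6e-08, limma). PBX4 was at 2.22 to 3.75 TPM in DU145 and PC3 and at 0.11 to 1.56 elsewhere (1.299 ± 0.129, adjusted p = 2.8e-05, limma). PKNOX2 was at 3.88 and 5.09 TPM in LNCaP, 0.82 to 1.29 in DUCAP and VCAP and 0.01 TPM or less in DU145 and PC3 (−1.499 ± 0.101, adjusted p = 2.6e-06, limma). Of 21 listed regulators of HOX expression, 19 were tested, with 5 higher and 9 lower in DU145 and PC3 and a median of −0.20, against the same shares of all tested genes. After median-ratio scaling the split was 3 higher and 12 lower for the regulators, and 2 higher and 5 lower for the cofactors.

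RARG, a retinoic acid receptor, was at 32.4 to 48.2 TPM in DU145 and PC3 and at most 9.06 TPM elsewhere (3.196 ± 0.131 SE, adjusted p = 1.7e-07, limma). BMI1, a Polycomb protein, was at 103 to 148 TPM in DU145 and PC3 and 21.0 to 39.3 TPM in the other lines (1.97 ± 0.192, adjusted p = 2.5e-05, limma), and the retinoic acid receptor RARA was also higher. CBX2, another Polycomb protein, was at 0.70 to 5.64 TPM in DU145 and PC3 and 10.7 to 17.8 TPM elsewhere (−2.07 ± 0.173, adjusted p = 9.8e-06, limma). CDX2, a homeodomain protein of the gut that acts on HOX genes, was at 2.79 to 4.56 TPM in DUCAP and VCAP and at 0.04 TPM or less in LNCaP, DU145 and PC3. The demethylase KDM6A was at 98.1 and 103 TPM in LNCaP and at most 19.1 TPM in the other 8 samples, and its values in DU145 and PC3 (5.75 to 19.1 TPM) overlapped with those in DUCAP and VCAP (11.9 to 15.0 TPM), although it passed as lower (−1.31 ± 0.119, adjusted p = 1.6e-05, limma).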

How the data were processed

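RNA-seq profiles of 5 untreated prostate cancer lines, with 2 biological repeats each, were analysed. The authors trimmed reads with Trim Galore 0.6.5 after FastQC 0.11.9, aligned them to GRCh38 with STAR 2.7.2b, quantified genes with RSEM 1.3.3 and deposited TPM per sample in 1 table, with no scaling between samples stated. TPM keep no depth, so no counting interval was computed. Groups followed the sample labels. The 17520 genes that reached 1 TPM in 2 or more samples entered a limma fit (version 3.58.1, R 4.3.3) on log2(TPM + 1) in which each of the 5 lines had its own coefficient. All 10 samples shared the estimate of spread, the prior variance followed a trend, and p-values were adjusted by Benjamini-Hochberg over all tested genes at 0.05. The limma step was tested on simulated data. Contrasts were any difference between lines, DU145 and PC3 minus the other 3, DU145 minus PC3, DUCAP minus VCAP, and LNCaP minus DUCAP and VCAP.

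Values per sample were given for HOXA10, HOXA13, HOXC6 and HOXD13, for the highest gene of each cluster and for genes called in a contrast whose groups did not overlap. There were 4 companion lists (TALE cofactors, cluster noncoding RNAs, HOX regulators and genes flanking the HOX genes analysed). From each the rule named up to 3 called genes in each direction. These had an absolute log2 difference of at least 1 in the contrast of DU145 and PC3 with the rest. Further members and noncoding RNAs were named after their values were seen. The genes and lists were chosen with earlier results of these data known. Alternatives were another pseudocount, filter, scaling, variance model or fold threshold, the replicate block and each sample left out. Coordinates and promoter windows came from RefSeq on GRCh38.p14 and were read with Python 3.11.15 and pandas 2.3.3. Another 2 HOX genes and a marker gene are not reported here.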

Additional observations from a re-analysis of the deposited data

How the results depend on the processing

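Of 68 differences called for single HOX genes, 1229 values under alternatives were computed, of which 1138 kept direction and call, 89 kept the direction and lost the call, and 2 reversed. The 2 were those of HOXC5 in DU145 and PC3 against the other lines (−0.12 with a pseudocount of 0.1 and −0.0289 after quantile normalization), and the cause was not tested. A gene that failed the filter under an alternative gave no value there, so calls lost in this way are not in the tally. With a filter of 5 TPM only 43 of the 68 differences had a value. With that filter, which tests fewer genes, 17 genes differed between the lines. It gave 13 between DU145 and PC3 and the other lines, and 13 between DU145 and PC3. Requiring an absolute log2 difference of at least 1 gave 12 for DU145 and PC3 against the others and 10 for LNCaP against DUCAP and VCAP. Quantile normalization gave 10 for DUCAP against VCAP, and the cause was not tested. With any 1 sample left out there were 19 to 28 genes between the lines, 16 to 24 for DU145 and PC3 against the others, 13 to 23 for DU145 against PC3, 2 to 5 for DUCAP against VCAP and 12 to 19 for LNCaP against DUCAP and VCAP. Genes present at 0.5 TPM numbered 20 in PC3, and the other lines are not given at that threshold. At 5 TPM they numbered 4 in LNCaP, 6 in DUCAP, 4 in VCAP, 11 in DU145 and 5 in PC3. When samples were matched by repeat number, deviations in different lines correlated at 0.00922 on average (10 line pairs, −0.191 to 0.249). Label numbers of DU145 and PC3 do not all match the repeat numbers, so these values cannot tell whether samples were paired. The replicate block has the same limit, and with it the counts were 28, 24, 21, 4 and 18 in the order above. Rescaling without mitochondrial genes gave 17 higher and 5 lower for DU145 and PC3 against the others. For LNCaP against DUCAP and VCAP, median-ratio scaling gave 6 higher and 14 lower. Alternatives for the companion lists were chosen after the data were seen.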

Other observations

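Genes that flank the HOX genes analysed here were also read, and they need not lie outside the whole cluster. Of 13 listed, 11 were tested, and all 11 differed between DU145 and PC3 and the other 3 lines, with 6 higher and 5 lower, where 74.4% of all tested genes did. After quantile normalization 4 were higher and 6 lower. SKAP1, an adaptor gene beside cluster B, was at 12.5 and 6.51 TPM in DU145 and at 0.08 TPM or less in the other 8 samples (DU145 minus PC3 3.22 ± 0.235 SE, adjusted p = 1.4e-05, limma). Beyond HOXB9, the last cluster B gene analysed here, PRAC1, a small gene of prostate and colon, was listed at 0 in both DU145 repeats. The other 8 samples ranged from 109 to 392 TPM for PRAC1. PRAC2, on the same side of HOXB9, was at 0.50 and 0.11 TPM in DU145 against 25.1 to 48.1 TPM elsewhere. Near cluster A, HIBADH was at 71.7 to 109 TPM in DU145 and PC3 and at 57.7 TPM or less in the other lines (1.33 on the log2 scale). SKAP2 differed by 1.61 on that scale in the mean of DU145 and PC3 against the others, but PC3 (18.5 and 16.4 TPM) lay below LNCaP (21.0 and 24.7 TPM), with DU145 at 42.8 and 37.3 TPM and DUCAP and VCAP at 3.89 to 5.05 TPM. In PC3, PRAC1 was at 234 and 340 TPM, within the range of LNCaP, DUCAP and VCAP, so its lower mean in DU145 and PC3 lay in the DU145 samples. EVX1 stayed at or below 0.93 TPM and EVX2 at or below 0.01 TPM.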
